A study of Mus musculus with 25 samples.

Results

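The clustered replication-dependent histone genes encode the linker histone H1 and the core histones H2A, H2B, H3 and H4, and lie together in a few gene clusters. Here they were the protein-coding genes whose symbols begin with *Hist1h*, *Hist2h*, *Hist3h* or *Hist4h*. The count table held 67 of them, namely 6 H1, 18 H2A, 18 H2B, 12 H3 and 13 H4 genes, among 55375 gene rows. Those that averaged 1 read or more over the 25 libraries, 28 in number, are described here, and they comprise 5 H1, 3 H2A, 11 H2B, 2 H3 and 7 H4 genes. Of these, 23 lie in the *Hist1* cluster, 2 in *Hist2*, 2 in *Hist3* and 1 in *Hist4*. The minimum left 39 genes out, of which 14 had 0 reads and 25 had 1 to 24 reads in all libraries together. Their 164 reads compare with 6559 reads on the 28 genes. Just inside the minimum were *Hist1h2bm* and *Hist1h2bb* (mean 1.24 reads each) and *Hist1h2aa* (1.2 reads), and just outside were *Hist1h2br* (0.88), *Hist1h4n* (0.8) and *Hist1h3c* (0.6).

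The study asked how lowering methylation of lysine 9 of histone H3 changes the transcriptome of late two-cell embryos made by somatic cell nuclear transfer (SCNT). All SCNT embryos came from enucleated BDF1 oocytes that received a cumulus cell nucleus of the same background, and all mice were wild type. IVF embryos (4 libraries) came from C57BL/6N oocytes and DBA2 sperm. By the paper, IVF embryos were of both sexes and all SCNT embryos were female, and only autosomal genes were tested here. The effects of the oocyte's strain, of sex and of the way the embryo was made therefore cannot be told apart. A first set of SCNT embryos was made in cytochalasin B (CB) and was either left without mRNA (2 libraries, CB control) or injected with about 10 pL of mRNA for *Kdm3a* (2) or *Kdm4d* (2), which encode demethylases of H3K9. A second set was made in latrunculin A (LatA) in place of CB, and was either untreated (2, LatA control), or treated with trichostatin A (TSA; 2), with the G9a inhibitor RK-701 (R701 in the labels; 3) or A366 (2), or with TSA together with RK-701, A366 or UNC0638 (2 each). TSA, which inhibits histone deacetylases, was given at 25 nM for 8 h, and each inhibitor of G9a, a methyltransferase of H3K9, at 1 µM for 24 h. Each library was made from 5 to 10 embryos collected 28 to 29 h after insemination or activation. In such pools, less RNA per cell and fewer cells cannot be told apart.

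Replication-dependent histone genes have no introns or few, and are transcribed mainly in S phase, when new DNA has to be packed into nucleosomes. Unlike other mRNAs, their mRNAs mostly end in a conserved stem-loop, which is bound by the stem-loop binding protein SLBP, and carry no poly(A) tail. Some histone genes also give polyadenylated transcripts that end beyond the stem-loop. The oocyte stores histone mRNA and protein, including an oocyte form of linker histone, and the embryo draws on this store in its first cell cycles. Since the libraries were made from polyadenylated RNA, the values below are taken as those of polyadenylated histone transcripts. They do not measure the mRNAs that end at the stem-loop, and whether each read came from a tailed transcript was not tested.

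The stem-loop was found in the annotated transcripts by its 16 bases, a stem of paired bases around a loop rich in T. It was present in the annotation of 22 of the 28 genes and of 24 of the 39 genes left out, against 68 of all 21901 protein-coding genes (0.31%). The sequences below are those of the members that the results turn on or that hold many of the reads, with the 16 bases in capitals and 5 bases on each side, in the sense of the transcript (GENCODE M21 transcripts, build GRCm38).
Hist1h4i: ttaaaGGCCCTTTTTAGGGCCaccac
Hist2h4: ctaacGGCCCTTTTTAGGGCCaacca
Hist1h4c: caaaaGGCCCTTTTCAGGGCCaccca
Hist4h4: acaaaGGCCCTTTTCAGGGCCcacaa
Hist1h2bh: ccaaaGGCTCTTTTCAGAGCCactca
Hist1h2bj: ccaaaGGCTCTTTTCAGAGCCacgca
Hist1h1c: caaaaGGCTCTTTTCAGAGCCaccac

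These stretches lie at chr13:22040961-22040986 (minus strand) for *Hist1h4i*, chr3:96262934-96262959 (minus) for *Hist2h4*, chr13:23698084-23698109 (minus) for *Hist1h4c*, chr6:136803993-136804018 (minus) for *Hist4h4*, chr13:23542923-23542948 (minus) for *Hist1h2bh*, chr13:22043633-22043658 (plus) for *Hist1h2bj* and chr13:23739507-23739532 (plus) for *Hist1h1c*, each in the 3′ untranslated part of the last exon. The 16 bases of *Hist1h4i* were shared with *Hist2h4* and with no other of the 67 genes. The form in *Hist1h4c* and *Hist4h4* was found in 7 genes (4 of the 28), and the form in *Hist1h2bh*, *Hist1h2bj* and *Hist1h1c* in 26 genes (11 of the 28). *Hist1h1a* and *Hist1h1b*, by contrast, had no stem-loop in their annotation, which ends 48 and 0 bases after the stop codon.

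The 28 genes had longer annotated ends than the 39 genes left out, which is a property of the annotation that the reads were counted on. A median of 396.5 bases followed the stop codon in the former and 77 in the latter, and 71 in the 14 genes with 0 reads. More than 100 bases followed it in 18 of 28 genes and 13 of 39 genes. In *Hist1h4i* the annotation ran on for 330 bases beyond the stem-loop, in *Hist1h4c* for 454, in *Hist1h2bh* for 1214 and in *Hist4h4* for 2445 bases. An AATAAA or ATTAAA hexamer, the usual signal for polyadenylation, stood in the last 50 bases of 11 of 28 genes and 6 of 39 genes.

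Sequence shared with other genes also differed. Only reads with a single position in the genome were counted, so a gene that is nearly identical to another can hold few reads whatever its level. The share of a gene's windows of 150 bases that occurred in another gene had a median of 5.54% over the 28 genes, 58.4% over the 39 genes left out and 91.3% over the 14 genes with 0 reads. It was 0% for *Hist1h1a*, 2.08% for *Hist1h4i* and 22.3% for *Hist1h2bj*. This share also counts windows that lie in a gene overlapping the same place, which is not a second copy. *Hist2h2bb* was at 100%, and *Gm42743*, which shared its windows, overlaps it. Of the 14 genes with 0 reads, 10 overlapped another gene, so their share mixes copies and overlaps. Moreover, 5 of the 28 genes (*Hist3h2a*, *Hist1h2be*, *Hist1h1e*, *Hist1h2ac* and *Hist1h2aa*) and 19 of the 39 overlapped exons of another gene. Counting took no account of strand, so reads of such pairs cannot be told apart, and the values of these 5 genes are uncertain.

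**Figure D1:**
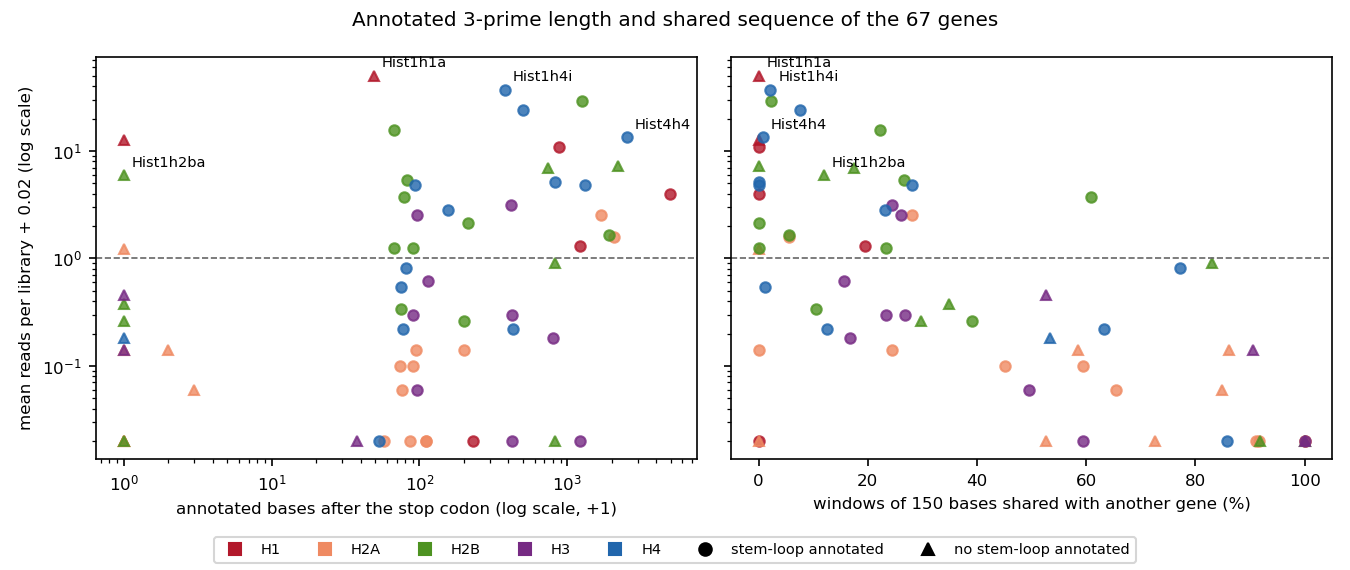
Mean reads per library (log scale, 0.02 added) of the 67 genes against the annotated bases after the stop codon (log scale, 1 added) and against the share of 150-base windows found in another gene (%). Colours are histone classes, circles have an annotated stem-loop and triangles have none, and the dashed line is the minimum of 1 read. Genes with over 50% of windows shared lie mostly under the line, with 1 of 24 above it.

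The promoters shown next are those of the H1 gene and the H4 gene that hold most of the reads and of *Hist1h1b*, the next H1 gene by level. Capitals mark, on either strand, the box CCAAT, the box with the letters TATAAA, and AAACACA, which is known as an element of H1 gene promoters. The stretches are 200 bases of the RefSeq promoter windows (GRCm38.p6), in the direction of transcription, at chr13:23763468-23763667 (plus), chr13:21780626-21780825 (minus) and chr13:22041363-22041562 (minus).
Hist1h1a: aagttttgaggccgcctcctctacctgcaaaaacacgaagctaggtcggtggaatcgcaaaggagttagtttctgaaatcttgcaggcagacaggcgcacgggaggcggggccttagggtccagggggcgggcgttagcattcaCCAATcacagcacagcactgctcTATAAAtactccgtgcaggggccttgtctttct
Hist1h1b: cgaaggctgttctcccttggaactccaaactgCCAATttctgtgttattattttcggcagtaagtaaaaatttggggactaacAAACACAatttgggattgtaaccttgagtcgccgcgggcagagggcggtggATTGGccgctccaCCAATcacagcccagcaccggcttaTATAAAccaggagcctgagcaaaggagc
Hist1h4i: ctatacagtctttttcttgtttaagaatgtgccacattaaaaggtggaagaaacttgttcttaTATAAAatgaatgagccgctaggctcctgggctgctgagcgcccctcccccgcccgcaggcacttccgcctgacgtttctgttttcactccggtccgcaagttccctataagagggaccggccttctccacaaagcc

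Promoter windows from 250 bases before to 50 bases after the start were at hand for 62 of the 67 genes. CCAAT was found in 53 of them against 37.4% of all 32851 windows, TATAAA in 35 against 13.6%, and AAACACA in 9 against 7.18%. A gene counted if any of its windows held the letters, whereas the shares are of single windows. A gene with several windows therefore had more chances to count. Among the 6 H1 genes, 5 held AAACACA, and *Hist1h1a* was the one whose window did not. The windows of *Hist1h1a* and *Hist1h1b* both held CCAAT and TATAAA. These are matches of letters, and no binding was measured.

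Reads on genes ranged from 6662727 to 21188688 per library (median 13994840), and 131 to 459 reads per library fell on the 28 genes. A count of 3 reads, the limit that 0 reads allows, corresponded to 0.157 to 0.465 CPM (reads scaled to the size of the library, with TMM factors), so many of these genes lay near what the depth can show. Injected *Kdm3a* mRNA raised the *Kdm3a* count in its own group (log2 fold change 4.02 ± 0.25 SE against the CB control; edgeR, adjusted p = 6.79e-11), and *Kdm4d* mRNA the *Kdm4d* count (13.27 ± 0.59; edgeR, adjusted p = 1.93e-14). As for markers of the stage, 6 oocyte-stored transcripts summed to 1037 to 4254 TPM (a level scaled for gene length and library) and 8 transcripts of the two-cell stage to 1185 to 3708 TPM per library. The 12 cumulus cell markers summed to 4.83 to 24.7 TPM, and 4 markers of later lineages to 36.6 to 87.7 TPM, with *Cdx2* at 0 reads in most groups. These p values measure the spread between pools of embryos.

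Polyadenylated transcripts of the 28 genes made up a small share of each library, and the share was larger in untreated SCNT embryos than in IVF embryos. They took 0.00173 ± 0.000166% of the reads on genes in IVF embryos (SD, n = 4), 0.00291 ± 0.000436% in the CB control (n = 2) and 0.00258 ± 0.000267% in the LatA control (n = 2). The share was lowest with TSA and RK-701 together (0.0012 ± 0.00034%, n = 2). Over single libraries it ran from 0.000956% to 0.00322%, and the exact 95% binomial (Clopper-Pearson) intervals, which cover counting error only, spanned 0.000808% to 0.00361%. No test was made on these sums.

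A few genes held most of the reads. On the scale of TPM, which allows for length, *Hist1h1a*, encoding linker histone H1.1, led with a mean of 15.4 over the 25 libraries and 19.2% of the reads on the 28 genes. *Hist1h4i*, one of many genes for the same H4 protein, followed with 10.8 TPM and 14.2% of the reads. Next came *Hist1h2bj* (7.36 TPM), *Hist1h4c* (6.31), *Hist1h1b* (3.86), *Hist1h2bh* (3.51) and *Hist1h2ba* (3.16), the last encoding a testis-type H2B that is also known from oocytes. The highest H3 gene, *Hist1h3g*, reached 1.13 TPM and the highest H2A gene, *Hist1h2aa*, 0.61 TPM. Only 9 of the 28 genes had a read in every library, and 8 had a mean of 10 reads or more. Some low genes drew on single libraries, since 41.5% of all reads on *Hist1h2be* came from CB control replicate 2 and 37.7% of those on *Hist3h2ba* from A366 replicate 2.

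**Figure D2:**
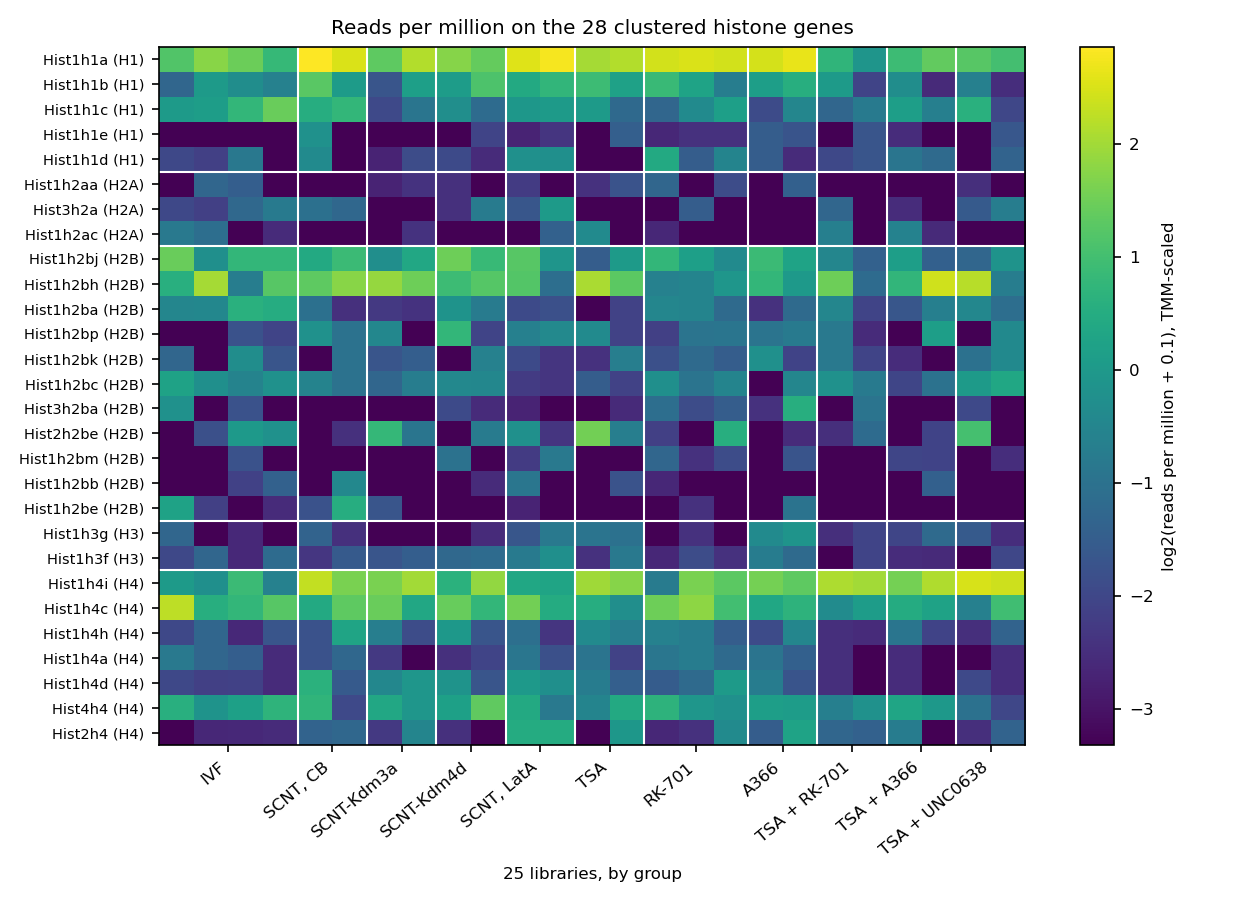
Level of the 28 genes (rows, by histone class and then by mean TPM) in the 25 libraries (columns, by group), as log2 of CPM with 0.1 added. *Hist1h1a*, *Hist1h4i*, *Hist1h4c* and *Hist1h2bj* had reads in all libraries, whereas most H2A, H3 and lower H2B rows were at 0 in some.

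The classes differed in where they were high. Summed TPM of the 5 H1 genes was 14.0 ± 2.97 (SD, n = 4) in IVF embryos, 39.4 ± 14.0 (n = 2) in the CB control and 37.7 ± 7.98 (n = 2) in the LatA control. Both controls lay above all 4 IVF libraries, the lowest control being at 29.5 and the highest IVF library at 17.7. The 7 H4 genes summed to 15.9 ± 5.49 TPM in IVF embryos, 34.7 ± 4.95 in the CB control and 23.4 ± 6.12 in the LatA control, and the LatA control overlapped the IVF libraries. The 11 H2B genes were at 26.5 ± 5.95, 25.8 ± 2.88 and 23.1 ± 9.08 TPM in the same order, so that their groups overlapped.

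H2A and H3 transcripts were near the limit of detection. The 3 H2A genes summed to 1.59 ± 1.06 TPM in IVF embryos, 0.537 ± 0.13 in the CB control and 1.58 ± 0.541 in the LatA control. The 2 H3 genes summed to 0.958 ± 0.665, 1.6 ± 0.818 and 3.91 ± 1.95 TPM. Single genes carried such sums, as the ratio of the CB control to IVF embryos for H3 moved from 1.67 to 0.877 without *Hist1h3g*, and that for H2A from 0.337 to 0.902 without *Hist1h2aa*. For H4 the ratio moved from 2.18 to 1.39 without *Hist1h4i*, and for H1 in the LatA control from 2.69 to 1.77 without *Hist1h1a*. The H2A ratio of the LatA control moved from 0.996 to 1.92 without *Hist1h2aa*.

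**Figure D3:**
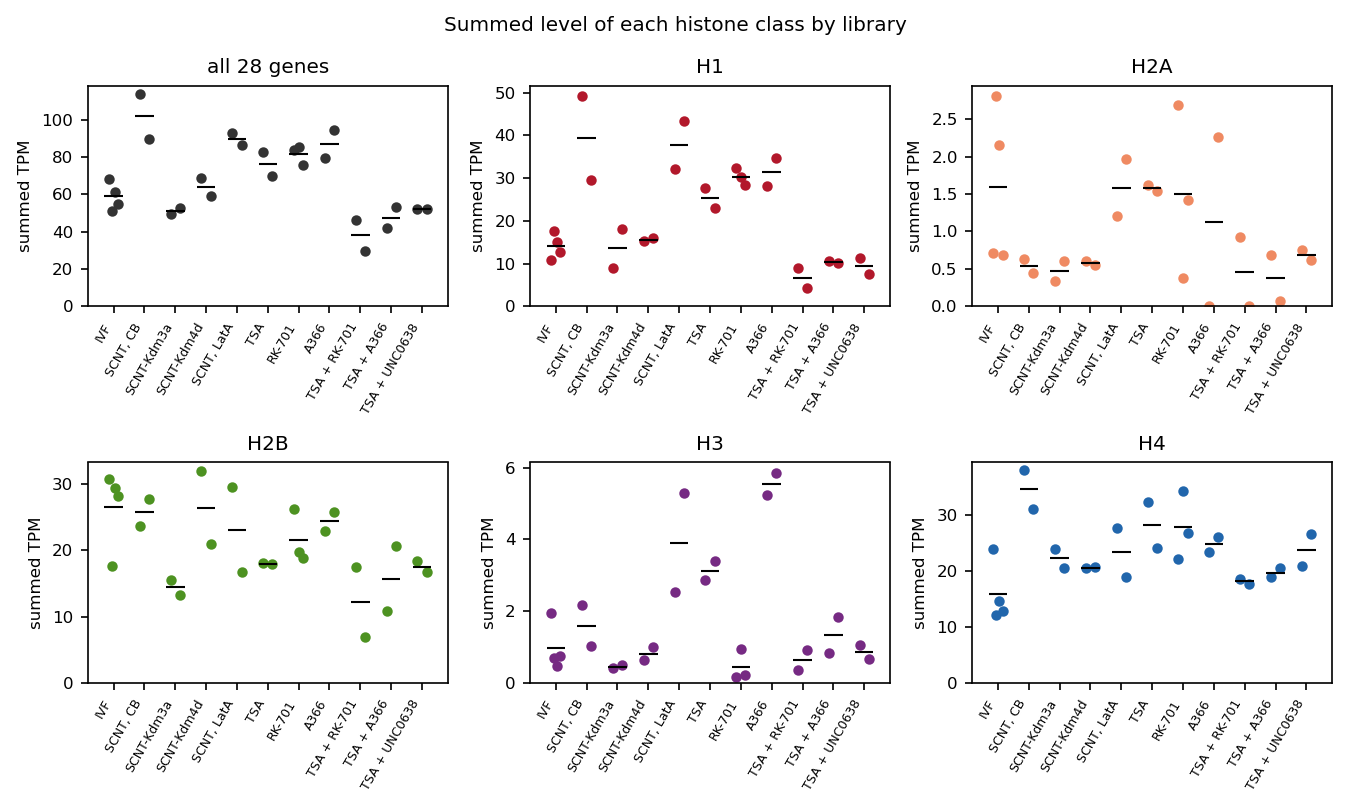
Summed TPM of all 28 genes and of each histone class in the 25 libraries by group, each point being a library and each black line the group mean. For H1, the untreated and single-treatment LatA groups sit between 23.0 and 43.4 TPM, and the 3 groups with TSA and a G9a inhibitor between 4.36 and 11.3 TPM.

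The sum of all 28 genes, which was not tested, was 101.9 ± 17.0 TPM in the CB control, 51.2 ± 2.46 with *Kdm3a* and 64.0 ± 6.94 with *Kdm4d*, against 59.0 ± 7.52 in IVF embryos. In the LatA set it was 89.7 ± 4.73 TPM in the control, 76.3 ± 9.04 with TSA, 81.6 ± 5.30 with RK-701 and 87.3 ± 10.6 with A366. With both kinds of compound it was 38.2 ± 11.8 TPM (TSA + RK-701), 47.6 ± 8.12 (TSA + A366) and 52.3 ± 0.173 (TSA + UNC0638). The size of these differences depended on the scale. The ratio to the CB control was 0.502 as TPM and 0.713 as CPM with *Kdm3a*, and 0.628 and 0.777 with *Kdm4d*. For the combinations, the ratios to the LatA control were 0.426, 0.53 and 0.583 as TPM and 0.57, 0.719 and 0.79 as CPM. All 6 libraries of these 3 groups lay below both LatA controls. RK-701 (75.6 to 85.6 TPM) and TSA (69.9 to 82.7) also lay below the lower control (86.4), but nearer to it, and A366 spanned both. H1 made up the greater part of the difference, and summed to 6.7 ± 3.31, 10.4 ± 0.262 and 9.43 ± 2.7 TPM in the 3 groups with both compounds. The H1 sum was also lower with *Kdm3a* (13.5 ± 6.3 TPM) and *Kdm4d* (15.5 ± 0.511) than in the CB control (39.4 ± 14.0).

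Untreated SCNT embryos had more transcript of *Hist1h1a* and, in the CB set, of *Hist1h4i* than IVF embryos. *Hist1h1a* (chr13:23763666-23764406, plus strand, a single exon) was at 2.17, 3.29, 2.66 and 1.67 CPM in the 4 IVF libraries. It was at 7.17 and 5.58 CPM in the CB control and at 5.75 and 6.8 CPM in the LatA control. All 4 control libraries lay above all IVF libraries. The log2 fold change was 1.37 ± 0.39 (SE) for the CB control (edgeR, adjusted p = 0.0112) and 1.34 ± 0.38 for the LatA control (edgeR, adjusted p = 0.0122). Without CB control replicate 1 the former was 1.17 (adjusted p = 0.12, range over all alternatives 0.00201 to 0.12), and without LatA control replicate 2 the latter was 1.22 (adjusted p = 0.092, range 0.00263 to 0.092). Beside this, cumulus cell markers summed to 8.47 to 20.5 TPM in IVF embryos, 19.9 to 23.8 in the CB control and 12.8 to 20.1 in the LatA control. Oocyte-stored transcripts summed to less in all control libraries (1769 to 2188 TPM in the CB control, 1862 in both LatA libraries) than in IVF embryos (2666 to 3387 TPM). They did not all move together. *Zp3* and *Gdf9* averaged lower in both controls, but *Bmp15* averaged 611 TPM in the CB control and 697 in the LatA control against 361 in IVF embryos. The part of either list in the result was not tested.

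*Hist1h4i* (chr13:22040636-22041362, minus strand, a single exon) was at 0.93, 0.746, 1.75 and 0.558 CPM in IVF embryos. In the CB control it was at 4.84 and 2.95 CPM, above every IVF library (log2 fold change 1.95 ± 0.55; edgeR, adjusted p = 0.0112). In the LatA control it was at 1.19 and 1.12 CPM, within the IVF range. Without CB control replicate 1 the change was 1.55 (edgeR, adjusted p = 0.152, range over all alternatives 0.00498 to 0.152). The difference between both controls was itself −1.74 ± 0.66, LatA minus CB (edgeR, adjusted p = 0.543), so it was not past the threshold.

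A second H4 gene, *Hist2h4* (chr3:96261682-96263311, minus strand), was higher in the LatA control than in IVF embryos. It had 0, 1, 1 and 1 reads in the IVF libraries and 24 and 14 reads in the LatA control, 1.3 CPM in each of the latter. The ratio of the summed counts, set against depth, was 22.7 (exact interval 7.21 to 115, counting error only), and the fitted log2 fold change was 4.35 ± 1.38 (edgeR, adjusted p = 0.0239). Leaving out any of the 6 libraries, IVF replicates 1 to 4 or LatA control replicates 1 and 2, took the adjusted p to between 0.0515 and 0.0681. The other LatA groups reached 1.1 CPM at most, and the CB control 0.319 CPM.

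In all, 2 of the 28 genes were past the threshold (adjusted p under 0.05 over all 25794 genes tested, fold change over 2) in the CB control against IVF, where 15% of all genes were. In the LatA control against IVF they were also 2 of 28, where 15.3% of all genes were. Each called gene was higher in SCNT embryos, where 8.17% and 8.83% of all genes were, so both counts were near the share over all genes. The median log2 fold change of the 28 genes was 0.14 for the CB control and 0.22 for the LatA control (0.29 and 0.25 with genes at 0 reads in one group set to the limit of 3 reads), beside 0.01 and 0.04 for all genes. *Hist1h4d*, another H4 gene, was at 0.07 to 0.155 CPM in IVF embryos, at 1.45 and 0.239 CPM in the CB control and at 0.923 and 0.745 CPM in the LatA control (edgeR, adjusted p = 0.0709 and 0.0675).

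**Figure D4:**
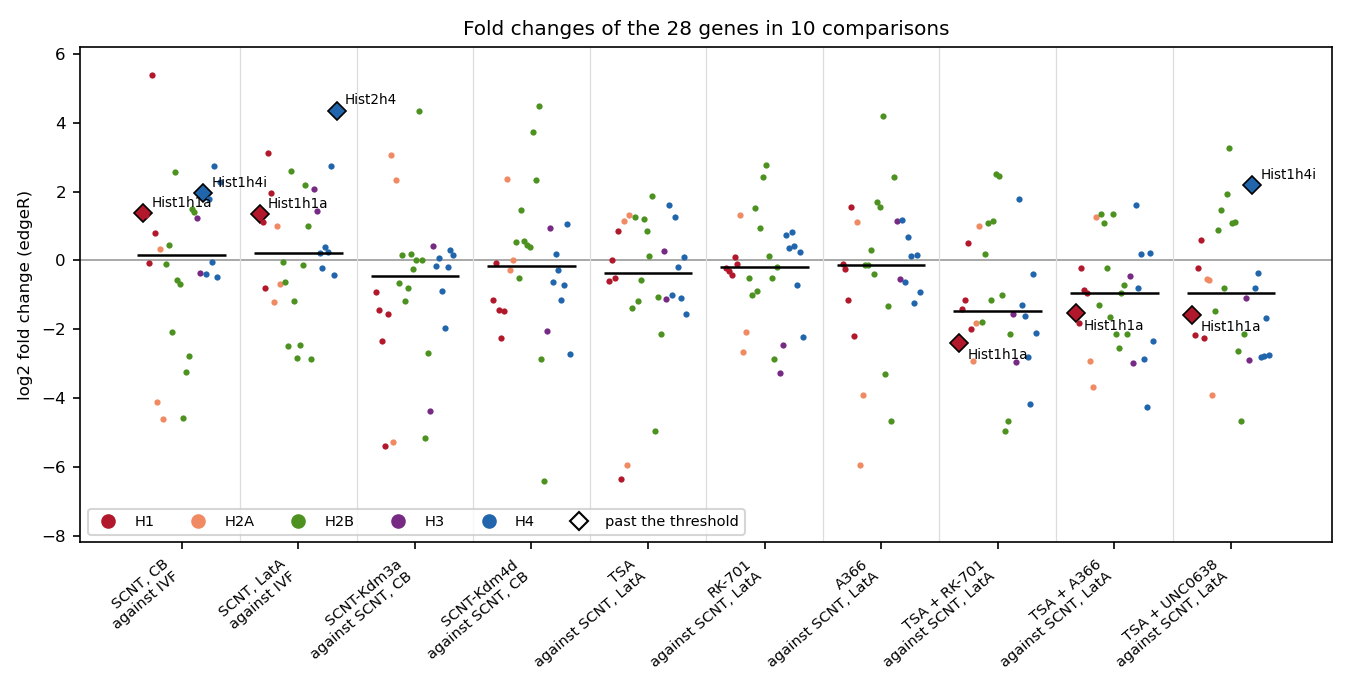
Log2 fold changes (edgeR) of the 28 genes in 10 comparisons of an untreated SCNT group with IVF embryos or of a treated group with its own control, coloured by histone class. Black lines are medians, and diamonds are the calls past the threshold, which were *Hist1h1a* in 5 comparisons, *Hist1h4i* in 2 and *Hist2h4* in 1.

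*Kdm3a* and *Kdm4d* mRNA gave no call among the 28 genes. *Hist1h1a* was at 2.41 and 4.36 CPM with *Kdm3a* and at 3.23 and 2.52 CPM with *Kdm4d*, all below both CB controls, and the log2 fold changes were −0.92 (edgeR, adjusted p = 0.258) and −1.15 (adjusted p = 0.164). *Hist1h4i* was at 2.99 and 3.93 CPM with *Kdm3a*, within the range of the CB control. With *Kdm4d* it was at 1.45 and 3.51 CPM, 1 library below and 1 within that range. *Hist1h1c*, encoding H1.2, was at 0.157 and 0.428 CPM with *Kdm3a* against 1.36 and 1.59 CPM in the control (log2 fold change −2.35, edgeR, unadjusted p = 0.0343, adjusted p = 0.206). Cumulus cell markers summed to 4.83 to 7.58 TPM with *Kdm3a* and 8.26 to 15.9 with *Kdm4d* against 19.9 to 23.8 in the CB control, and oocyte-stored transcripts to 1350 to 1807 and 2075 to 2621 TPM against 1769 to 2188. Their part was not tested.

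Counts by edgeR were 0 of 28 genes for *Kdm3a* and 0 of 28 for *Kdm4d*, where 4.16% and 3.14% of all genes were past the threshold. At an unadjusted p under 0.05 there were 4 and 2, all lower, where 20.1% and 18.7% of all genes were in either direction. DESeq2 called 0 genes for *Kdm3a* and 1 for *Kdm4d*, *Hist1h1a*. All 5 H1 genes had a fold change below 0 in both comparisons. Of these, *Hist1h1d* and *Hist1h1e* had 7 and 8 reads in the CB control, each in only 1 of its 2 libraries. *Hist1h1b* hardly differed with *Kdm4d* (mean 1.54 against 1.64 CPM). The medians of the 28 genes were −0.45 and −0.18 (−0.80 and −0.41 with genes at 0 reads at the limit), and those of all genes −0.04 and −0.04. Between both demethylases, *Kdm4d* minus *Kdm3a*, edgeR and DESeq2 called 0 of 28 genes (0.326% of all genes by edgeR), with 2 at an unadjusted p under 0.05 (10% of all genes).

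A single compound gave no call either. *Hist1h1a* was at 3.98 and 4.3 CPM with TSA, at 5.28, 5.59 and 5.36 with RK-701 and at 5.45 and 6.24 with A366. The TSA libraries were below both LatA controls, RK-701 just below them and A366 partly within their range, with log2 fold changes of −0.60, −0.21 and −0.10. *Hist1h4i* was at 3.81 and 3.24 CPM with TSA, above both LatA controls (log2 fold change 1.6, edgeR, unadjusted p = 0.0227, adjusted p = 0.301). It was at 2.85 and 2.4 CPM with A366, and at 0.497, 2.96 and 2.38 CPM with RK-701, where 1 of 3 libraries lay below the controls.

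Counts by edgeR were 0 of 28 genes with TSA, RK-701 and A366 alike, beside 0.318%, 3.35% and 0.12% of all genes. At an unadjusted p under 0.05 there were 3, 1 and 1 genes (12.9%, 19.7% and 12% of all genes), and DESeq2 called 0 in each. The medians of the 28 genes were −0.36, −0.20 and −0.13 (−0.48, −0.19 and −0.18 with genes at 0 reads at the limit), against −0.02, −0.01 and −0.02 for all genes. *Hist1h1d*, encoding H1.3, had 0 reads in both TSA libraries against 0.76 and 0.745 CPM in the LatA control (edgeR, adjusted p = 0.206).

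*Hist1h1a* was lower with TSA and a G9a inhibitor together in all 3 combinations, whose comparisons share the same 2 LatA control libraries. It was at 1.55 and 0.837 CPM with TSA + RK-701, at 1.79 and 2.5 with TSA + A366, and at 2.27 and 1.91 with TSA + UNC0638. All 6 libraries were well below both LatA controls (5.75 and 6.8 CPM) and within or below the range of IVF embryos. The log2 fold changes against the LatA control were −2.39 ± 0.49 (edgeR, adjusted p = 0.00223), −1.54 ± 0.47 (adjusted p = 0.036) and −1.58 ± 0.47 (adjusted p = 0.0326). Against IVF embryos *Hist1h1a* was not past the threshold in any of them, the lowest being TSA + RK-701 (−1.05, edgeR, adjusted p = 0.102).

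The call for TSA + RK-701 was lost without its replicate 2 (−2.01, edgeR, adjusted p = 0.0708, range over all alternatives 1.36e-05 to 0.0708). For TSA + A366 the adjusted p was 0.129 without LatA control replicate 2, and 0.256 and 0.112 without its own replicates 1 and 2 (range over all alternatives 0.00437 to 0.256). For TSA + UNC0638 the same 3 values were 0.142, 0.149 and 0.175 (range 0.00354 to 0.203). The latter calls were also lost when genes of every level entered the test (adjusted p = 0.121 and 0.112), when only the compared libraries were fitted (0.191 and 0.203), and with the replicate number as a block (0.0579 and 0.0552). The direction was the same under each alternative.

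Cumulus cell markers were lower than in the LatA control with TSA + RK-701 and TSA + A366 and overlapped it with TSA + UNC0638, and their part in the result was not tested. The 12 markers summed to 12.8 to 20.1 TPM in the LatA control, 6.0 to 6.21 TPM with TSA + RK-701, 6.89 to 6.96 with TSA + A366 and 8.2 to 13.2 with TSA + UNC0638, with 2, 4, 2 and 4 of them at 0 reads in the whole group. IVF embryos were at 8.47 to 20.5 TPM with 4 markers at 0. Oocyte-stored transcripts summed to 1862 TPM in both LatA controls and to 1037 to 1223, 1477 to 1811 and 1315 to 1836 TPM in the same order of combinations, all lower sums. *Gdf9* and *Bmp15* averaged lower in each combination, but *Zp3* went the other way. *Zp3* was at 110 to 118 TPM in the LatA control, then at 155 to 175, 208 to 225 and 131 to 156 with the combinations. The part of these transcripts was not tested either.

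*Hist1h4i* stood at the opposite end in the same embryos. It was at 4.17 and 3.91 CPM with TSA + RK-701, at 2.86 and 4.26 with TSA + A366 and at 5.49 and 5.15 with TSA + UNC0638, all above both LatA controls (1.19 and 1.12 CPM). Only TSA + UNC0638 was past the threshold (log2 fold change 2.19 ± 0.66, edgeR, adjusted p = 0.0361), while TSA + RK-701 (1.79, adjusted p = 0.0878) and TSA + A366 (1.61, adjusted p = 0.133) were not. With the CB control as the reference the change for TSA + UNC0638 was 0.45 (edgeR, adjusted p = 0.722, range over all alternatives 0.0132 to 0.722), since the CB control was itself high. Leaving out LatA control replicate 1 or 2, or TSA + UNC0638 replicate 1 or 2, gave 2.24, 2.15, 2.15 and 2.24 with adjusted p of 0.0997, 0.17, 0.147 and 0.0908.

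**Figure D5:**
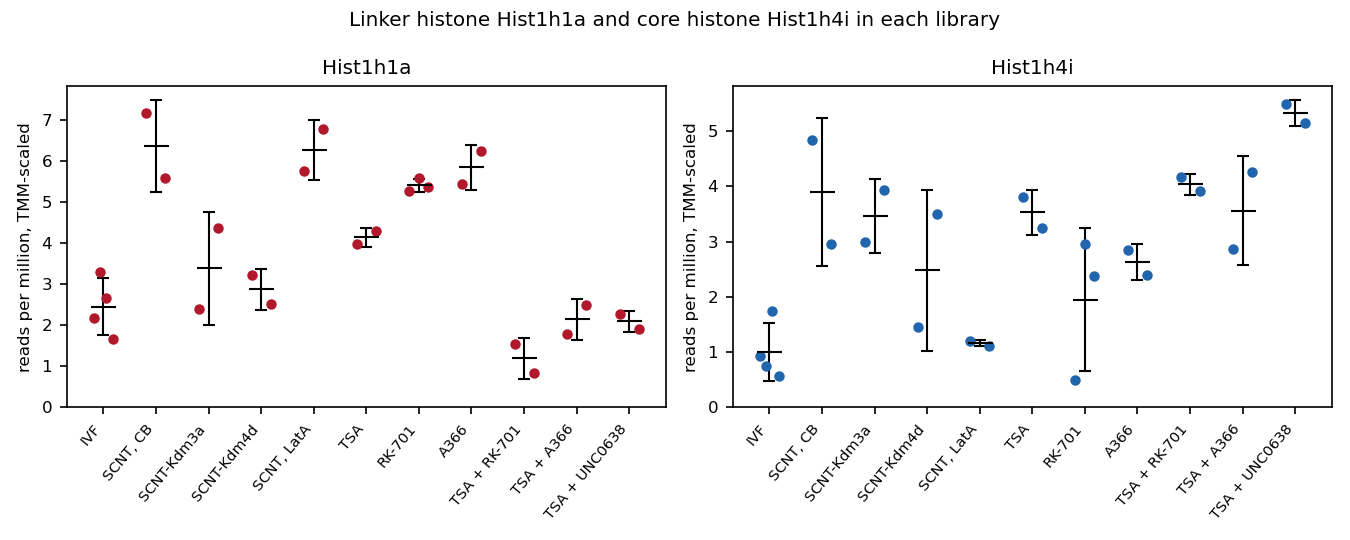
*Hist1h1a* (left) and *Hist1h4i* (right) in CPM in the 11 groups, with 1 point per library, and the mean and SD of each group. *Hist1h1a* was at 5.58 to 7.17 in both untreated SCNT groups and at 0.837 to 2.5 in the 3 groups with TSA and a G9a inhibitor, where *Hist1h4i* was at 2.86 to 5.49.

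The counts were 1 of 28 genes (lower) for TSA + RK-701, 1 (lower) for TSA + A366, and 2 (1 lower, 1 higher) for TSA + UNC0638, where 6.19%, 5.98% and 6.21% of all genes were past the threshold. Of all genes, 2.51%, 2.92% and 2.54% were lower in these comparisons, and 3.68% were higher with TSA + UNC0638. The medians of the 28 genes were −1.47, −0.96 and −0.95 (−1.32, −0.96 and −1.02 with genes at 0 reads at the limit), beside −0.11, −0.12 and −0.08 for all genes tested. Of the 28 genes, 20, 21 and 20 had a fold change below 0. *Hist1h4d* was at 0 to 0.157 CPM in the 6 libraries (edgeR, adjusted p = 0.08, 0.0766 and 0.219), so the H4 genes did not all lie on one side. *Hist1h2bc*, an H2B gene, was at 0.941 and 1.18 CPM with TSA + UNC0638 against 0.109 and 0.093 CPM in the LatA control (edgeR, adjusted p = 0.0979).

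Whether the joint treatment did more than the sum of both was asked by the interaction. For *Hist1h1a* it was −1.58 (95% interval −2.89 to −0.278) on the log2 scale for TSA and RK-701 (edgeR, adjusted p = 0.217) and −0.85 for TSA and A366 (adjusted p = 0.548). By edgeR 0 of 28 genes were past the threshold in either, where 2.14% and 1.83% of all genes were. At an unadjusted p under 0.05 there were 2 in each (14.9% and 16.7% of all genes), and DESeq2 called 0 in both.

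The G9a inhibitors were compared at the same dose and time in 4 pairs. Without TSA, *Hist1h1a* differed between A366 and RK-701 by 0.11 on the log2 scale (95% interval −0.73 to 0.95, A366 minus RK-701) and *Hist1h4i* by 0.45 (−0.75 to 1.64). Oocyte-stored transcripts differed between these groups, at 1729 to 2380 TPM with A366 and 3226 to 4254 TPM with RK-701, and their part was not tested. With TSA, *Hist1h1a* differed by 0.85 (−0.16 to 1.86) for A366 minus RK-701, by 0.81 (−0.20 to 1.83) for UNC0638 minus RK-701 and by −0.04 (−1.01 to 0.94) for UNC0638 minus A366. *Hist1h4i* differed in the same order by −0.18 (−1.46 to 1.10), 0.40 (−0.87 to 1.67) and 0.58 (−0.70 to 1.85). The adjusted p of these 8 differences ran from 0.544 to 1 (edgeR). The interval for *Hist1h1a* without TSA lay within 2-fold, and the others reached 2-fold or more in at least 1 direction, so they do not show that the compounds act alike.

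By edgeR 0 of 28 genes were past the threshold in any of the 4 pairs, where 8.08% of all genes were for A366 against RK-701 and 0%, 0.946% and 0.849% for the 3 pairs with TSA in the order above. DESeq2 also called 0 in each. At an unadjusted p under 0.05 there was 1 gene in the first pair and 0 in the others, beside 25.7%, 3.87%, 11.5% and 10.1% of all genes. That gene was *Hist1h3g*, encoding H3, at 0.671 and 0.823 CPM with A366 and at 0, 0.085 and 0 CPM with RK-701 (edgeR, adjusted p = 0.0796). Both untreated controls differed in 0 of 28 genes by edgeR and DESeq2 (0.0116% of all genes by edgeR), and 1 gene, *Hist1h4i*, had an unadjusted p under 0.05 (7.81% of all genes).

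The treated groups were also compared with IVF embryos. *Hist1h4i* was higher than in IVF embryos with *Kdm3a* (log2 fold change 1.77, edgeR, adjusted p = 0.0219), TSA (1.81, 0.0178), TSA + RK-701 (2.00, 0.00965), TSA + A366 (1.82, 0.0213) and TSA + UNC0638 (2.40, 0.00253). *Hist1h1a* was higher with RK-701 (1.13, edgeR, adjusted p = 0.0216) and A366 (1.24, 0.0201). Groups without a call could also lie outside the IVF range, as *Hist1h1a* with TSA (3.98 and 4.3 CPM) and *Hist1h4i* with A366 (2.85 and 2.4 CPM) were above every IVF library. *Hist1h2ba* was lower with TSA, with 4, 10, 22 and 19 reads in the IVF libraries and 0 and 2 reads with TSA, a ratio of summed counts of 14.1 (IVF over TSA, exact interval 3.74 to 120, counting error only; log2 fold change −3.67, edgeR, adjusted p = 0.0379). The untreated LatA control was also low for this gene (0.163 and 0.186 CPM, log2 fold change −2.48 against IVF, edgeR, adjusted p = 0.125), as was the CB control (0.387 and 0.08 CPM, −2.10, adjusted p = 0.197). These comparisons share the IVF libraries.

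These were 1 of 28 genes with *Kdm3a* (12.8% of all genes), 0 with *Kdm4d* (9.31%), 2 with TSA (14.9%), 1 with RK-701 (11.8%), 1 with A366 (15.2%) and 1 each with TSA + RK-701 (12.2%), TSA + A366 (10.9%) and TSA + UNC0638 (9.84%). For *Kdm4d* against IVF, edgeR gave 2 genes at an unadjusted p under 0.05 (27% of all genes) and DESeq2 called 0. In the direction of the calls, all genes gave 6.59% higher with *Kdm3a*, 7.82% higher and 7.12% lower with TSA, 6.65% higher with RK-701 and 8.05% higher with A366. For the combinations, ending in TSA + UNC0638, they gave 6.27%, 5.52% and 5.54% higher. The call of *Hist1h4i* with TSA + UNC0638 held without any single library (edgeR, adjusted p 0.000602 to 0.0286 over all alternatives). The other calls each depended on single libraries. For *Hist1h4i* with *Kdm3a* the adjusted p was 0.0598 and 0.0693 without IVF replicates 2 and 4 and 0.0552 and 0.141 without *Kdm3a* replicates 1 and 2. With TSA it was 0.0576 without IVF replicate 4 and 0.122 and 0.055 without TSA replicates 1 and 2. With TSA + RK-701 it was 0.0628 and 0.0549 without replicates 1 and 2 of that group. With TSA + A366 it was 0.0599 and 0.0683 without IVF replicates 2 and 4 and 0.216 without TSA + A366 replicate 2.

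The calls of *Hist1h1a* against IVF depended on single libraries as well. With RK-701 the adjusted p was 0.0501 and 0.0778 without IVF replicates 1 and 4 and 0.0532, 0.0609 and 0.0549 without RK-701 replicates 1, 2 and 3. With A366 it was 0.0639 without IVF replicate 4 and 0.0623 and 0.16 without A366 replicates 1 and 2. For *Hist1h2ba* with TSA it was 0.0764 and 0.0715 without IVF replicates 3 and 4, and 0.275 without TSA replicate 1.

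Some of the more abundant members spread widely within groups. *Hist1h2bh* ranged from 0.349 to 5.27 CPM, and its libraries in TSA + UNC0638 were at 4.47 and 0.515 CPM and those in the LatA control at 2.23 and 0.372. *Hist1h4c* ranged from 0.549 to 4.65 CPM and *Hist1h2bj* from 0.254 to 2.74 CPM, with IVF libraries at 1.37 to 4.65 and 0.746 to 2.64. *Hist1h1b*, encoding H1.5, was at 0.31 to 0.932 CPM in IVF embryos, at 2.32 and 0.957 in the CB control and at 1.25 and 1.58 in the LatA control, above the IVF range in each case. In the 3 groups with TSA and a G9a inhibitor it was at 0.068 to 0.928 CPM. No comparison of these 4 genes was past the threshold.

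The oocyte and replication-independent variants of histones are mostly made from polyadenylated mRNAs of other genes. Which ends the mRNAs of these genes had was not tested. Of 15 such genes tested, 0 were higher and 2 lower in each untreated control than in IVF embryos (13.3% of the list, beside 15% and 15.3% of all genes). They were *H1foo*, the linker histone of the oocyte (log2 fold change −1.25 ± 0.25 for CB, −1.79 ± 0.26 for LatA; edgeR, adjusted p = 0.000705 and 1.52e-05), and *H3f3b*, encoding the variant H3.3 (−1.05 ± 0.20 and −1.26 ± 0.21; 0.000429 and 5.9e-05). The medians were −0.22 and 0.16, beside 0.01 and 0.04 for all genes. Summed oocyte-stored transcripts were lower in both controls too, though not *Bmp15*, with the values given above for *Hist1h1a*. Their part in the change of *H1foo* was not tested. *H3f3b* was higher than in its own control with *Kdm3a* (1.03), *Kdm4d* (1.06), TSA + RK-701 (1.08) and TSA + UNC0638 (1.13). In the last pair *H3f3a* was higher as well (1.04 and 1.06), and with TSA + UNC0638 also *H2afz*, encoding H2A.Z (1.14). In these 4 comparisons edgeR called 1, 1, 2 and 3 of the 15 higher and 0 lower. These are 6.67%, 6.67%, 13.3% and 20% of the list, beside 4.16%, 3.14%, 6.19% and 6.21% of all genes in either direction. DESeq2 called 0, 0, 1 and 3 higher, and 1 lower with *Kdm3a* and with TSA + UNC0638. *H3f3b* was thus not called by DESeq2 with either demethylase. With RK-701 alone 3 of the 15 were lower, namely *H2afj* (−2.84), *H2afx* (−2.22) and *H2afv* (−1.46; edgeR, adjusted p = 0.0371, 0.0063 and 0.000376). They are 20% of the list, beside 3.35% of all genes in either direction. The first 2 were low and spread widely in the LatA control, at 4.18 ± 2.91 and 5.33 ± 3.78 CPM (SD, n = 2). With RK-701 they were at 0.54 ± 0.727 and 1.12 ± 0.114 CPM (n = 3). The RK-701 libraries stood apart in their oocyte-stored transcripts (3226 to 4254 TPM against 1862 in the LatA control), whose part was not tested. For TSA, A366 and TSA + A366, edgeR called 0 of 15, with 0, 3 and 6 at an unadjusted p under 0.05, and DESeq2 called 0, 0 and 1.

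Of 21 genes for making and breaking down the 3′ end of histone mRNA, 3 were higher and 4 lower in the CB control than in IVF embryos, and 3 higher and 3 lower in the LatA control. These are 33.3% and 28.6% of the list, beside 15% and 15.3% of all genes, and the medians were −0.33 and −0.22 beside 0.01 and 0.04. *Slbp*, whose product binds the stem-loops shown above, was lower in the CB control (350 against 768 CPM, log2 fold change −1.14 ± 0.17, edgeR, adjusted p = 1.6e-05). *Lsm10*, encoding a protein of the U7 particle that guides the cut, was lower in both (−1.23 and −1.25), and *Cpsf3*, encoding the enzyme that cuts, was higher in both (1.63 and 1.41), as was *Sympk*, encoding the scaffold symplekin (1.47 and 1.48). *Cstf2t* and *Cstf1*, encoding subunits of a factor for cleavage and polyadenylation, were lower in both controls and higher with *Kdm3a* and *Kdm4d* (1.17 and 1.22 for *Cstf2t*). *Cstf2t* was higher in all 3 combinations (2.01, 1.94 and 1.53) and *Srrt*, encoding a protein that joins the RNA's cap to its 3′ end processing, was lower in all of them (−1.33, −1.24 and −1.55). The paper lists *Cstf2t* among germline genes known to resist *Kdm4d* and reports its derepression by TSA + RK-701. Here *Cstf2t* was higher with *Kdm4d* too.

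The counts for this list were 2 higher and 0 lower of 21 with *Kdm3a* and with *Kdm4d*, and 2 higher and 1 lower with RK-701. For TSA and A366 edgeR called 0, with 5 at an unadjusted p under 0.05 in each, and DESeq2 called 1 and 0. With both compounds they were 1 higher and 1 lower (TSA + RK-701), 3 and 1 (TSA + A366), and 2 and 1 (TSA + UNC0638). The shares of the list called were 9.52% with *Kdm3a* and *Kdm4d* (4.16% and 3.14% of all genes), 14.3% with RK-701 (3.35%), and 9.52%, 19% and 14.3% with the combinations (6.19%, 5.98% and 6.21%). Of 14 genes for histone gene transcription and entry into S phase, 2 were higher in the CB control than in IVF embryos (*Cdc25a* 1.41 and *E2f2* 1.06), and in the LatA control 1 was higher (*Cdc25a*, 1.61) and 1 lower (*Ccne2*, −1.0). Both counts are 14.3% of the list, near the 15% and 15.3% of all genes. *Cdc25a*, encoding a phosphatase that drives the cell cycle, was the 1 gene changed by *Kdm4d* (−1.10). *Creb1* was higher with TSA + RK-701 (1.16) and TSA + A366 (1.15), and *E2f2* was lower with TSA + RK-701 (−1.33). The shares of this list called were 7.14% with *Kdm4d* (3.14% of all genes), 14.3% with TSA + RK-701 (6.19%) and 7.14% with TSA + A366 (5.98%). With *Kdm3a*, TSA, RK-701, A366 and TSA + UNC0638, edgeR and DESeq2 called 0 of 14, with 4, 3, 5, 5 and 3 at an unadjusted p under 0.05.

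Of 30 histone chaperones and assembly factors tested, 2 were higher and 1 lower in the CB control and 3 higher and 1 lower in the LatA control, against IVF embryos. These are 10% and 13.3% of the list, under the 15% and 15.3% of all genes. *Vps72*, which binds H2A.Z, was higher in both (1.85 and 1.86), as was *Spty2d1* (1.61 and 1.34), and *Ipo9*, an importer of histones into the nucleus, was lower in both (−1.45 and −1.23). *Chaf1b*, of the complex that loads new H3 and H4 onto replicated DNA, was higher in the LatA control (1.0). *Ipo9* was higher than in its own control with *Kdm4d* (1.16), TSA + RK-701 (1.12), TSA + A366 (1.19) and TSA + UNC0638 (1.07), and *Hat1*, which acetylates new H4, with TSA + UNC0638 (1.02). The shares of this list called were 3.33% with *Kdm4d*, TSA + RK-701 and TSA + A366, and 6.67% with TSA + UNC0638. Of all genes, 3.14%, 6.19%, 5.98% and 6.21% were called in these comparisons. With *Kdm3a*, TSA, RK-701 and A366, edgeR and DESeq2 called 0 of 30, with 10, 5, 11 and 7 at an unadjusted p under 0.05.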

How the data were processed

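RNA-seq libraries of polyadenylated RNA were made with SMART-Seq HT kits from 25 pools of embryos in 11 groups, as the labels give them. The counts deposited by the authors are raw reads per gene from featureCounts, taken without strand after trimming (Trimmomatic) and alignment (STAR, mm10), with only unique alignments kept. The rows of repeats in the same table were left out. Of 55375 genes, 55134 matched GENCODE M21.

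Counts were tested with edgeR 4.0.16 (TMM, glmQLFit, glmQLFTest) in 1 model of 11 groups, over the 25794 autosomal genes that averaged 1 read or more per library. A call had a Benjamini-Hochberg adjusted p under 0.05 and a fold change over 2. TMM factors were 0.883 to 1.16, dispersion was 0.136 in common, on 12.6 prior degrees of freedom. TPM used autosomal genes. The steps were tested on simulated data. Members and lists were chosen with earlier results of these data known. Named were the 3 highest genes of each class, all calls, up to 3 called genes per list and direction, and the injected genes; *Hist1h4d*, *Hist1h1d*, *Hist1h2bc* and single low genes were named after their values were seen.

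Alternatives were DESeq2 1.42.0, RLE factors, 2 filters (none, and 10 reads in 2 libraries), only the compared libraries, the other control, the replicate number as a block, each library left out, and for sums other scales or no leading gene.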

Additional observations from a re-analysis of the deposited data

Results flagged for a closer look

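Of 22 results in IVF embryos that could be checked for a library far from the others (groups of 4 libraries), 1 passed Dixon's limit, *Hist2h4*. IVF replicate 1 had 0 reads and the other 3 had 1 read each, so that the gap to the nearest library was 0.892 of the whole range. About 1 in 20 such groups passes by chance, and here the gap amounts to a single read.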

How the results depend on the processing

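Under the alternatives no called gene changed direction, and 129 of 189 repeats of the calls stayed past the threshold. The number of the 28 genes called moved to 1 (CB control against IVF) and 1 (LatA control against IVF) with the replicate number as a block, and in the latter also to 1 with no filter. With *Kdm4d* against its control it moved to 1 with DESeq2. For TSA + A366 against the LatA control it was 0 with no filter, the block or the compared libraries only. For TSA + UNC0638 it was 1 with the other control, no filter or the block, and 0 with the compared libraries only. Against IVF it was 3 for *Kdm3a* with DESeq2 or the compared libraries only, 1 for TSA with no filter or the block, 0 for RK-701 and for A366 with either, and 2 for TSA + RK-701 with DESeq2. The cause was not tested. Libraries with the same number did not deviate together (111 pairs, r from −0.298 to 0.134, median −0.00632), so the block rests on a number alone. In addition, 2 of 25 libraries correlated best with their own number in other groups. That count is a weak check, since replicate 4 exists only in IVF embryos and replicate 3 only there and with RK-701.

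Leaving out 1 library gave 0 to 4 genes called for the CB control against IVF, 0 to 2 for TSA and for A366 against IVF, 1 in each case for TSA + UNC0638 against IVF, and 0 to 1 for the LatA control, *Kdm3a*, RK-701, TSA + RK-701 and TSA + A366 against IVF and for the 3 combinations against the LatA control. Ratios of summed TPM moved without the most abundant gene to 1.22 (all, LatA control over IVF), 0.961 (TSA), 0.56, 0.657 and 0.744 (the 3 combinations, ending in TSA + UNC0638), 1.77 (H1, LatA control over IVF), 0.902 and 1.92 (H2A, CB and LatA control over IVF). As CPM the sums gave 1.25 (LatA control over IVF), 0.713 (*Kdm3a*), 0.777 (*Kdm4d*), 0.57, 0.719 and 0.79 (the combinations), and TPM over all chromosomes gave 0.626 for TSA + UNC0638. Depth limits most of the 28 genes, of which 19 had no read in at least 1 library.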
